A study of Mus musculus with 9 samples.

Results

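Gpr183, S1pr1, S1pr4, S1pr5, Cxcr3, Cxcr4, Cxcr6, Cx3cr1 and Ccr2 encode 9 G protein-coupled receptors that steer lymphocytes along gradients of oxysterols, sphingosine 1-phosphate (S1P) or chemokines. They were selected on earlier values of the genotype difference in these same arrays, then listed by name, and 8 of the 9 are described here, out of 17097 genes with a probe set of their own. Cxcr4 was not analysed here. Where a gene had several probe sets, the one with the highest mean over all 9 arrays gave its main value, a choice that does not use genotype. Those means on the log2 scale were 9.04 for Gpr183, 9.34 for S1pr1, 11.11 for S1pr4, 10.71 for S1pr5, 10.56 for Cxcr3, 9.33 for Cxcr6, 10.08 for Cx3cr1 and 10.23 for Ccr2. They come from different probes and give no order between the genes.

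The arrays measured OVA-specific CD8+ T cells of C57BL/6 mice, sorted by flow cytometry from the spleen on day 9 of a Listeria monocytogenes infection. OVA, ovalbumin, is a model antigen. In the 4 WT samples the mice had floxed Tsc1 alleles and no cre. In the 5 Tsc1-/- samples the mice had the same floxed alleles and cre driven by Granzyme B, which is switched on in activated T cells, so Tsc1 is lost after activation. Since every Tsc1-/- sample and no WT sample carries cre, cre and Tsc1 loss cannot be told apart. With Tsc2, Tsc1 holds back mTORC1, a kinase complex that drives growth when nutrients are plentiful. Nothing in the labels says whether samples came from separate animals, so the spread that the p-values rest on may be technical.

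Chemotactic receptors of this family signal mostly through G proteins of the Gi class, and their balance decides where a T cell goes. S1pr1 draws lymphocytes out of lymphoid organs towards the S1P of blood and lymph, and the transcription factor Klf2 is known to maintain it. S1pr5 is known from egress of NK cells and, like Cx3cr1, marks effector CD8+ T cells that patrol blood and vessel walls. Gpr183 binds oxysterols and positions lymphocytes and dendritic cells within the spleen and lymph nodes. Cxcr3 responds to chemokines induced by interferon gamma, Cxcr6 to Cxcl16, and Ccr2 to Ccl2 and related chemokines that also recruit monocytes.

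The targeted gene, Tsc1, read 7.56 to 7.77 in WT and 7.27 to 7.51 in Tsc1-/-, a difference of -0.26 that was not called (adjusted p = 0.114, limma), and 2 further Tsc1 probe sets differed by -0.01 and -0.32. Markers of T cells, Cd8a and Cd8b1 among them, had bright and like mean levels, 11.09 to 11.15 in WT and 11.11 to 11.20 in Tsc1-/- over 7 measured genes. Array medians ran from 6.03 to 6.05 in WT and, all lower, from 5.97 to 6.02 in Tsc1-/-. Tsc1-/- replicate 1 stood apart from its group. It was the far array of its group, by Dixon's criterion at 95%, in 2.72% of genes, against 0.877% to 1.68% for the other 8 arrays. Its Tsc1 level, 7.43, lay within the range of the other Tsc1-/- arrays. Receptor differences that turn on this array are given with and without it. Each difference is the Tsc1-/- mean less the WT mean of log2 values, tested with limma over all genes with Benjamini-Hochberg adjustment, and a gene was called at an adjusted p under 0.05.

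Of the 8 receptor genes, 1 was called lower and 0 higher in Tsc1-/-, beside 0.310% and 0.971% of all genes in those directions and 1.28% in either (53 and 166 genes; 32 and 58 after quantile normalization, 57 and 381 after median centring). At an unadjusted p under 0.05, limma had 3 lower (Gpr183, Cxcr3 and Ccr2) and 0 higher, beside 7.34% and 9.83% of all genes, or 17.2% in either direction. The median difference of the 8 was -0.13, with 5 negative, against -0.01 over all genes. Without overlap between genotypes, 1 of the 8 was lower and 0 were higher, beside 2.88% and 5.08% of all genes, or 7.96% in either direction. Since Gpr183 had been seen to fall in these data when the genes were chosen, this count describes them and supports nothing.

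**Figure D1:**
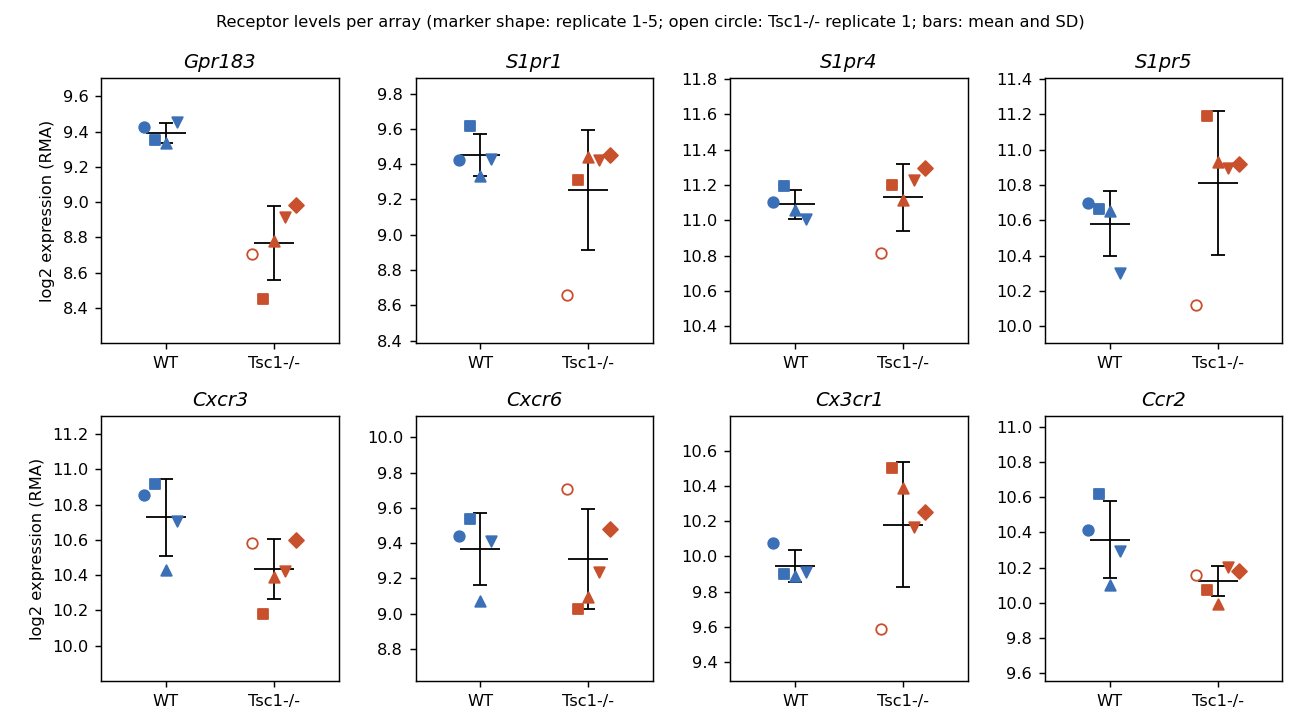
Log2 expression (y axis) of each receptor gene in the 4 WT and 5 Tsc1-/- arrays (x axis), with 1 point per array, the marker shape giving the replicate number and black bars the mean and SD; every panel spans the same log2 range. Gpr183 separates the genotypes, and Tsc1-/- replicate 1, the open circle, lies lowest of all arrays for S1pr1, S1pr4, S1pr5 and Cx3cr1 and highest for Cxcr6.

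Gpr183 was the receptor gene that fell in Tsc1-/- cells, to 64.9% of its WT level. The promoter window of its RefSeq entry, 250 bases before to 50 after the start, lies at chr14:121965144-121965443 (GRCm38.p6, minus strand) and is shown because this is the called gene. In this and the following windows capitals mark the letters CACCC or GGGTG, the core bound by Klf factors read on either strand, and Gpr183 has none:
Gpr183: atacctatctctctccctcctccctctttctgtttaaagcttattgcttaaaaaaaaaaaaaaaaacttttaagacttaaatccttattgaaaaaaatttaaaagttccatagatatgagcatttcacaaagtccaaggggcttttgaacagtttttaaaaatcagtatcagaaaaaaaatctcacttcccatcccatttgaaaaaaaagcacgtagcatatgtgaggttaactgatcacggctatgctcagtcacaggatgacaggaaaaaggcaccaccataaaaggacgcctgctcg

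Its main probe set read 9.43, 9.35, 9.34 and 9.45 in WT replicates 1 to 4. In Tsc1-/- replicates 1 to 5 it read 8.71, 8.45, 8.78, 8.92 and 8.98. The highest Tsc1-/- array thus lay below the lowest WT array, and the WT arrays were tightly grouped (9.39 ± 0.06, SD, n = 4) while the Tsc1-/- arrays spread further (8.77 ± 0.21, SD, n = 5). The difference was -0.62 (SE 0.10, 95% interval -0.85 to -0.40, adjusted p = 0.0314, limma), the 30th smallest p of 17097 genes. A further Gpr183 probe set read 9.07, 9.07, 8.88 and 8.88 in WT and 8.30, 8.28, 8.27, 8.54 and 8.28 in Tsc1-/-. It too separated the genotypes, with a difference of -0.64 (SE 0.09, adjusted p = 0.0272 over all 45037 probe sets, limma).

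The size of the Gpr183 difference held when single arrays were left out (-0.68 to -0.54), while its call did not always. Without Tsc1-/- replicate 1 it was -0.61 (adjusted p = 0.0376, limma). The call was lost without WT replicate 1 (-0.61, adjusted p = 0.106), WT replicate 2 (-0.64, adjusted p = 0.0939), Tsc1-/- replicate 2 (-0.54, adjusted p = 0.0518), Tsc1-/- replicate 3 (-0.63, adjusted p = 0.0514) and Tsc1-/- replicate 5 (-0.68, adjusted p = 0.0662), all by limma. In those fits 1, 1, 2, 12 and 1 genes of all 17097 were called lower.

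Gpr183 is also expressed by B cells, dendritic cells and myeloid cells, and in bulk samples fewer cells of a type and less RNA per cell cannot be told apart. Markers of monocytes and macrophages were lower in Tsc1-/- in 12 of 13 measured genes, with a mean level of 6.43 to 7.18 in WT and 6.20 to 6.60 in Tsc1-/- and 0 called. B cell markers were lower in 10 of 11, with 5.51 to 5.94 in WT and 5.13 to 5.63 in Tsc1-/-, and dendritic cell markers in 8 of 8, with 7.26 to 7.64 and 6.97 to 7.40, again with 0 called. In WT replicate 4 the monocyte and macrophage markers (6.43) and the B cell markers (5.51) lay within the Tsc1-/- range, and its Gpr183 level, 9.45, was the highest of all 9 arrays. In Tsc1-/- replicate 2 both marker levels (6.60 and 5.63) were the highest of the Tsc1-/- arrays, and its Gpr183 level, 8.45, was the lowest. The dendritic cell level was 7.11 in that array, the second lowest of the Tsc1-/- arrays, and 7.40, the highest of them, in replicate 5, which also had their highest Gpr183 level (8.98). In WT replicate 4, which had the highest Gpr183 level of all arrays, the dendritic cell level was 7.26, within the Tsc1-/- range. No fit had the dendritic cell level as a covariate, and its part in the Gpr183 difference was not tested. With the monocyte and macrophage level as a covariate the difference was -0.80 (adjusted p = 0.269, limma), and with the B cell level -0.83 (adjusted p = 0.254, limma). Those fits called 0 genes of any kind, with 1627 and 1703 genes at an unadjusted p under 0.05. Marker levels and genotype go together in these arrays, so the fits cannot separate them. The part of monocytes, macrophages and B cells in the Gpr183 difference was likewise not tested.

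**Figure D2:**
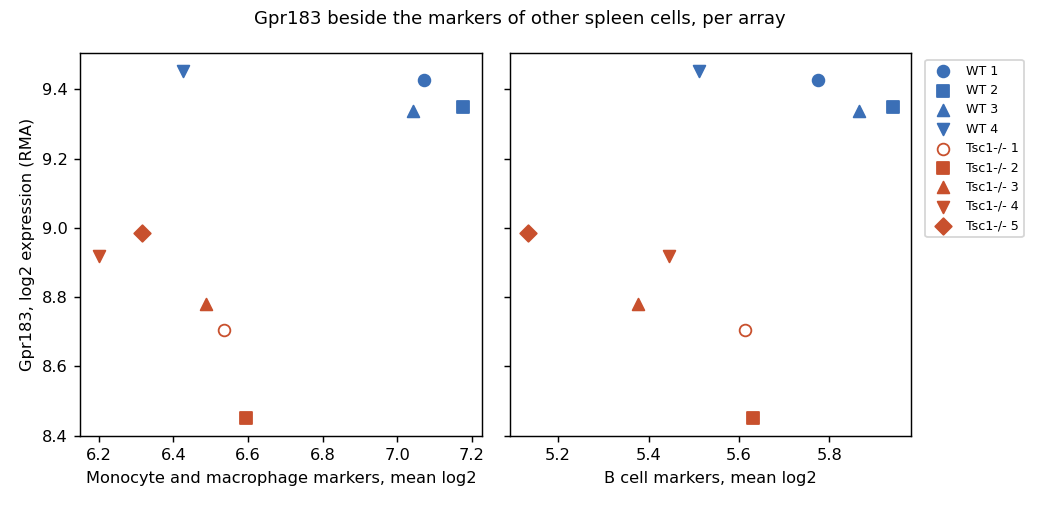
Gpr183 log2 expression (y axis) against the mean log2 level of monocyte and macrophage markers (left x axis) or B cell markers (right x axis), with 1 point per array. WT replicate 4 lies among the Tsc1-/- arrays on both x axes and at 9.45, the highest point, on the y axis.

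Cx3cr1 and S1pr5, the receptors of patrolling effector cells, were higher than in every WT array in 4 of the 5 Tsc1-/- arrays and lower than in every WT array in the other, replicate 1. Their promoter windows are shown because these genes varied together and both hold the Klf core, as do 57.5% of all windows. That of Cx3cr1 lies at chr9:120068247-120068546 and that of S1pr5 at chr9:21248394-21248693 (both GRCm38.p6, minus strand):
Cx3cr1: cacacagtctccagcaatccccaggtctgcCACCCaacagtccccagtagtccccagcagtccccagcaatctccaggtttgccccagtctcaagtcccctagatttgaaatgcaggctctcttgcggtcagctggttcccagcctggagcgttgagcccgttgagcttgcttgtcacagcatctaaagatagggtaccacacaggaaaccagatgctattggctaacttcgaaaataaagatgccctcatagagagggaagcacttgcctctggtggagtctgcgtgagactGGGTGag
S1pr5: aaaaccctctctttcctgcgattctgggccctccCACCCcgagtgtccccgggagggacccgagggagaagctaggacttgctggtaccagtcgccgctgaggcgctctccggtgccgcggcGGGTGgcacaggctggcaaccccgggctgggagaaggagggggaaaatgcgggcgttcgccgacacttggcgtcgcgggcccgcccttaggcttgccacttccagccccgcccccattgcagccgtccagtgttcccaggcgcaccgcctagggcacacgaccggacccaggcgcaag

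S1pr5 read 10.70, 10.66, 10.65 and 10.30 in WT and 10.12, 11.19, 10.93, 10.90 and 10.92 in Tsc1-/- replicates 1 to 5. Its means were 10.58 ± 0.19 (SD, n = 4) and 10.81 ± 0.41 (SD, n = 5), a difference of 0.23 (SE 0.18, 95% interval -0.16 to 0.62, adjusted p = 0.547, limma). Without Tsc1-/- replicate 1 the difference was 0.41 (95% interval 0.17 to 0.64, adjusted p = 0.090, limma), which did not pass. The lowest WT value, that of replicate 4, was itself far from the other WT arrays.

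Cx3cr1, the receptor of the membrane-bound chemokine Cx3cl1, read 10.08, 9.90, 9.89 and 9.91 in WT. In Tsc1-/- it read 9.59, 10.50, 10.39, 10.17 and 10.25, with replicate 1 the lowest of all arrays. The difference was 0.23 (SE 0.15, 95% interval -0.10 to 0.56, adjusted p = 0.467, limma), and 0.38 (95% interval 0.18 to 0.58, adjusted p = 0.0739, limma) without that replicate. A further Cx3cr1 probe set had the same order of groups, at 9.98, 9.98, 9.86 and 9.77 in WT and 9.65, 10.50, 10.42, 10.23 and 10.23 in Tsc1-/-. It differed by 0.31 over all arrays and by 0.45 without replicate 1 (adjusted p = 0.354 and 0.0805 over all probe sets, limma). Without that replicate, 2 of the 8 receptor genes, S1pr5 and Cx3cr1, were higher with no overlap between genotypes, beside 7.06% of all genes, and 1, Gpr183, was lower with none, beside 4.09% (11.2% in either direction). By adjusted p, 1 was then called lower and 0 higher, beside 0.269% and 0.831% of all genes, or 1.10% in either direction.

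Cx3cr1 is also a gene of monocytes and, with S1pr5, of NK cells. Of 5 measured NK cell genes 4 were lower and 0 were called, and their mean level ran from 6.38 to 6.46 in WT and from 6.15 in Tsc1-/- replicate 1 to 6.57 in Tsc1-/- replicate 2, the same arrays that had the lowest and highest S1pr5 and Cx3cr1. In these arrays Il18rap read 10.22 and 10.86 and Klra8 3.25 and 4.77, while Klrb1b read 5.89 and 5.81, Klrb1c 7.45 and 7.46, and Ncr1 3.94 in both. Over all arrays Ncr1, which defines NK cells, averaged 4.13 in WT and 3.94 in Tsc1-/-, below the median gene level of 6.34, and Klrb1c averaged 7.62 and 7.34, above it. The part of NK cells and of monocytes, whose marker levels are given above, in the S1pr5 and Cx3cr1 values was not tested.

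S1pr1, the egress receptor, did not differ by genotype beyond its spread. It read 9.43, 9.62, 9.33 and 9.43 in WT and 8.66, 9.31, 9.44, 9.42 and 9.45 in Tsc1-/-. A single array, Tsc1-/- replicate 1, was low, and the other 4 lay within the WT range or just under it. The difference was -0.20 (95% interval -0.52 to 0.13, adjusted p = 0.547, limma), and -0.05 (95% interval -0.23 to 0.14, adjusted p = 0.833, limma) without that array.

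S1pr4, an S1P receptor largely restricted to blood cells, read 11.10, 11.20, 11.06 and 11.00 in WT and 10.81, 11.20, 11.11, 11.23 and 11.29 in Tsc1-/-. Again replicate 1 was the lowest array, and the genotypes overlapped. The difference was 0.04 (95% interval -0.18 to 0.26, adjusted p = 0.879, limma), or 0.12 (adjusted p = 0.482, limma) without that array, and its sign turned under quantile normalization (-0.0033).

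Cxcr3, the receptor for interferon-induced chemokines, read 10.86, 10.92, 10.43 and 10.70 in WT and 10.58, 10.18, 10.39, 10.42 and 10.60 in Tsc1-/-. WT replicate 3 lay among the Tsc1-/- arrays. The difference of -0.29 (SE 0.12, 95% interval -0.54 to -0.04) had an unadjusted p of 0.0271 and did not pass after adjustment (adjusted p = 0.223, limma).

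Ccr2 read 10.42, 10.62, 10.10 and 10.30 in WT and 10.16, 10.07, 9.99, 10.21 and 10.18 in Tsc1-/-. As for Cxcr3, WT replicate 3 was the lowest WT array and the one that overlapped. The difference was -0.23 (SE 0.10, 95% interval -0.46 to -0.01, adjusted p = 0.266, limma). Of 3 further Ccr2 probe sets, 2 differed by much the same (-0.24 and -0.25), and the dimmest by -0.08, or 0.08 without Tsc1-/- replicate 1, which it read at 6.87 against 7.47 or higher in all other arrays. Inflammatory monocytes express Ccr2 strongly, and WT replicate 4, whose monocyte and macrophage markers were at the Tsc1-/- level, had a Ccr2 value of 10.30. The part of monocytes in the Ccr2 values was not tested.

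Cxcr6, the Cxcl16 receptor found on T cells that stay in tissues, had the highest value of all arrays in Tsc1-/- replicate 1. Its promoter window lies at chr9:123806227-123806526 (GRCm38.p6, plus strand). It is shown because this array was the highest for Cxcr6 and the lowest for Cx3cr1 and S1pr5. The window has no Klf core, and neither do those of Gpr183, Cxcr3 and Ccr2. The part of Klf factors in these values was not tested:
Cxcr6: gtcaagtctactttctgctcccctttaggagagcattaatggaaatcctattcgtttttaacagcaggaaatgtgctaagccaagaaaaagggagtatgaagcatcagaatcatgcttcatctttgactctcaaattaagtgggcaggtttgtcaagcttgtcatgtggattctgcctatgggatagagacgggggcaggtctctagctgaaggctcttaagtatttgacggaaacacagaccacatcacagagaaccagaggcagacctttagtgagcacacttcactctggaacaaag

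Cxcr6 read 9.44, 9.54, 9.07 and 9.41 in WT and 9.71, 9.03, 9.10, 9.24 and 9.48 in Tsc1-/-, with full overlap. The difference was -0.06 (95% interval -0.37 to 0.25, adjusted p = 0.881, limma), and -0.16 (adjusted p = 0.565, limma) without replicate 1. Its further probe set was likewise highest in that array, at 9.28, and differed by -0.10.

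**Figure D3:**
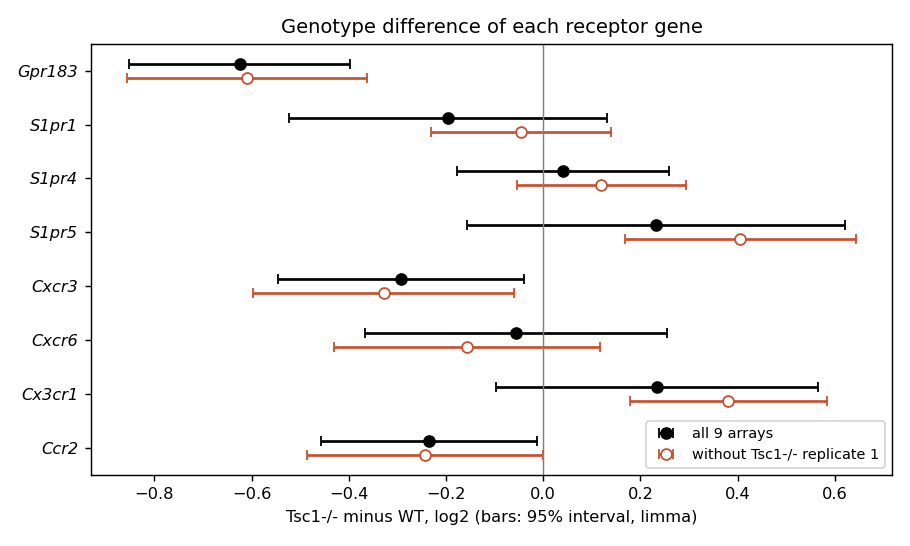
Genotype difference of each receptor gene (x axis, Tsc1-/- minus WT, log2) with its 95% interval from limma, for all 9 arrays (filled black) and without Tsc1-/- replicate 1 (open). The Gpr183 interval runs from -0.85 to -0.40. Those of Cxcr3 and Ccr2 exclude 0 with and without that array, and those of S1pr5 and Cx3cr1 only without it. The intervals are not adjusted over genes, and only Gpr183 was called in either fit.

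The receptors therefore differed in which arrays set their values. Tsc1-/- replicate 1 was the lowest of 9 arrays for 4 of the 8 genes, and Tsc1-/- replicate 2 for 3 (Gpr183, Cxcr3 and Cxcr6). Relative to the WT mean, replicate 1 lay at -0.80 for S1pr1, -0.46 for S1pr5, -0.36 for Cx3cr1 and -0.28 for S1pr4, and at 0.34 for Cxcr6. Replicate 2 lay at 0.61 for S1pr5 and 0.55 for Cx3cr1, and at -0.94 for Gpr183, -0.54 for Cxcr3 and -0.34 for Cxcr6. That array also had the highest mean level of neutrophil markers, 8.60 against 6.04 to 8.09 in the others. Its erythroid and platelet markers were highest too, at 7.06 against 6.14 to 6.88. The part of these cells in the receptor values was not tested.

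Transcription factors linked to these receptors were set beside them. Klf2, named after its values were seen, read 10.51 to 10.85 in WT and 9.93 in Tsc1-/- replicate 1, against 10.35 to 10.64 in the other Tsc1-/- arrays. The related Klf3, likewise named afterwards, read 10.62 in that array and 11.18 or higher in all others. Neither differed by genotype past the threshold (-0.29, adjusted p = 0.317, and -0.23, adjusted p = 0.410, limma), and without replicate 1 the differences were -0.16 and -0.10 (adjusted p = 0.432 and 0.589, limma). Zeb2, a repressor that promotes terminal effector differentiation, was also lowest in replicate 1 (8.69) and highest in replicate 2 (9.56), the array order seen for S1pr5 and Cx3cr1, with a genotype difference of 0.13 (adjusted p = 0.713, limma), or 0.25 (adjusted p = 0.300, limma) without replicate 1. Tbx21, the T-bet gene, differed by -0.0001 (adjusted p = 1.000, limma). Other linked factors went the other way in replicate 1: Hif1a (8.76) and Prdm1 (8.01), also named after their values were seen, read highest of all arrays there. Of 17 linked factors measured, 1 was called lower and 0 higher, beside 0.310% and 0.971% of all genes. The called gene was Eomes, at -0.58 (SE 0.11, adjusted p = 0.0359, limma) or -0.67 (adjusted p = 0.0146, limma) without Tsc1-/- replicate 1. Its call without other single arrays was not examined. Without WT replicate 1, WT replicate 2 or Tsc1-/- replicate 5, limma called 1 gene lower of all genes in each fit. Bhlhe40 differed by 0.51 with no overlap (adjusted p = 0.0808, limma), a gene chosen after its values were seen.

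**Figure D4:**
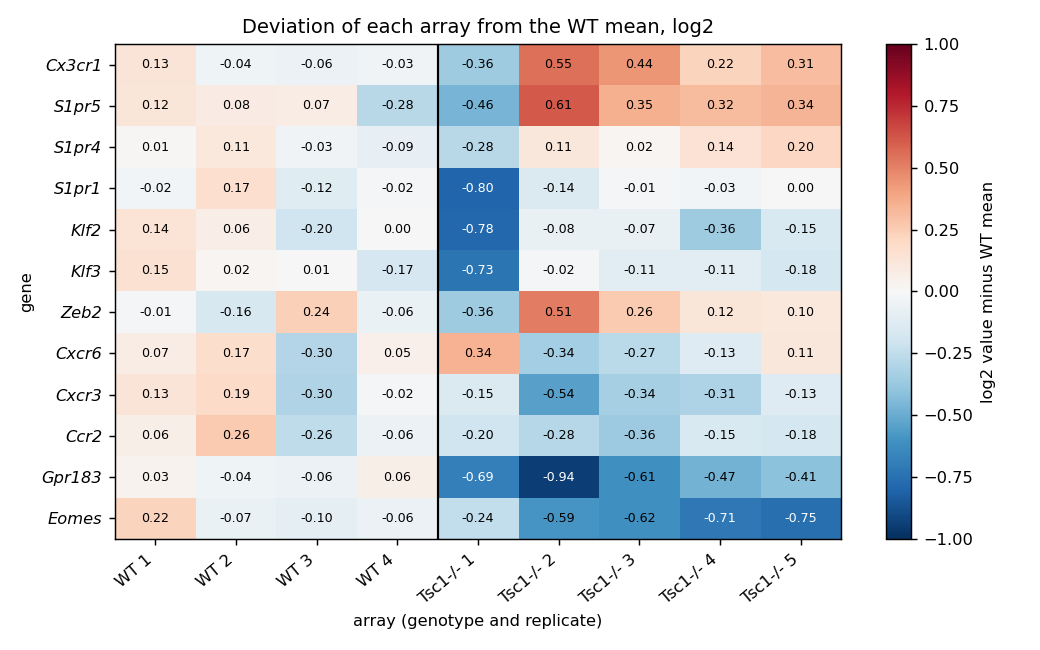
Deviation of each array (x axis) from the WT mean on the log2 scale, for the 8 receptor genes and 4 linked transcription factors (y axis), in color and number. The column of Tsc1-/- replicate 1 is negative for every gene shown but Cxcr6, and the Gpr183 row is negative in all 5 Tsc1-/- arrays. Klf2, Klf3 and Zeb2, low in that column, were named after their values were seen. Of the linked factors not shown, Hif1a and Prdm1 read highest of all arrays in replicate 1.

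The promoter windows of 7 of the 8 genes were in the RefSeq table, and S1pr1 was not. The Klf core CACCC, on either strand, occurred in 3 of the 7: in Cx3cr1 starting 220 bases before and 43 after the start, in S1pr5 at 216 and 128 before, and in S1pr4 at 107 before. It occurs in 57.5% of all 32851 windows of this length, so 3 of 7 is no excess. The T-box core CACACC occurred in 0 of 7 (19.0% of all windows), the forkhead motif TGTTTAC in 0 of 7 (3.65%), and the Zeb motif CACCTG in 2 of 7, S1pr4 and Cxcr3 (20.2%), on either strand. A T-box core followed by C holds the Klf core, and one followed by TG holds the Zeb motif. A match is a run of letters, not a measured binding site.

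Genes with the pattern most like each receptor were ranked by Pearson's r over the 9 arrays among 8244 genes at or above the median level. For Gpr183 they were Relch (0.964), Slamf6 (0.959), a receptor of the SLAM family, and Pdk1 (0.956), a kinase that inhibits pyruvate dehydrogenase. Slamf6 and Pdk1 were themselves lower in Tsc1-/- (-0.73 and -0.50, adjusted p = 0.0280 and 0.0490, limma), and Relch was lower without overlap but not called (-0.19, adjusted p = 0.222, limma), so the likeness includes a genotype difference. For S1pr5 they were Elf4 (0.963), a transcription factor that restrains CD8+ T cell proliferation, As3mt (0.955) and Slc37a3 (0.954). For Cx3cr1 they were the cytokine signalling genes Stat5a (0.962) and Jak1 (0.954), and Ypel5 (0.948). None of these 6 was called by genotype, and without Tsc1-/- replicate 1 their r stayed between 0.918 and 0.955. For S1pr1 they were Supt4b, Cnot1 and Atp1b3 (0.970, 0.968 and 0.961), and without that array r was 0.696, 0.833 and 0.579, so this likeness rested on it. These are the highest of many correlations over arrays that share normalization, and are given as a description.

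Among other receptors of the same kind, 0 of 14 measured chemokine receptors were called in either direction by limma. The smallest p values were those of Ccr3 (-0.51, unadjusted p = 0.00712, adjusted p = 0.123, limma) and Ccr10 (-0.21, adjusted p = 0.196, limma). Ccr3, at a mean level of 5.45, was dim, below the median gene level of 6.34, as 11 of the 14 were. The Ccr10 mean, 6.55, lay just above that level. Of 17 other lipid and chemoattractant receptors, 1 was called lower and 1 higher, beside 0.310% and 0.971% of all genes. Lpar6, a receptor for lysophosphatidic acid, read 8.94, 8.86, 8.75 and 8.88 in WT and 8.50, 8.40, 8.47, 8.44 and 8.55 in Tsc1-/-. It fell by 0.39 (SE 0.07, adjusted p = 0.0359, limma), or by 0.39 (adjusted p = 0.0434, limma) without Tsc1-/- replicate 1, with no overlap. As for Eomes, its call without other single arrays was not examined. Ptger4, a prostaglandin E2 receptor that raises cyclic AMP, read 9.30, 9.14, 9.33 and 9.48 in WT and 9.72, 9.66, 9.69, 9.60 and 9.77 in Tsc1-/-. It rose by 0.38 (SE 0.08, adjusted p = 0.0498, limma), and did not pass without Tsc1-/- replicate 1 (0.37, adjusted p = 0.0724, limma).

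The enzymes that make or remove the ligands were not called. Of 4 oxysterol enzymes, all dim here, Ch25h, which makes the precursor of the Gpr183 ligand, differed by 0.20 (adjusted p = 0.337, limma) and Cyp27a1 by -0.27 (adjusted p = 0.363, limma). Of 12 genes of S1P synthesis, export and removal, Sgpl1, the S1P lyase, differed by 0.27 (adjusted p = 0.225, limma) and Plpp3, a lipid phosphatase, by -0.22 (adjusted p = 0.232, limma). Of 10 chemokine ligands of these receptors, the Cxcr3 ligand Cxcl10 had the smallest p, from 6.91 in WT to 7.46 in Tsc1-/- (0.55, adjusted p = 0.115, limma), followed by Ccl7 (0.27, adjusted p = 0.168, limma).

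Downstream genes likewise gave 0 calls by limma in 16 G protein genes, 16 genes of receptor desensitization and 28 of migration signalling. At an unadjusted p under 0.05 these 3 lists had 2, 6 and 3 genes, beside 17.2% of all genes. Regulators of G protein signalling (Rgs), which shorten Gi signals, went both ways: Rgs10 differed by -0.51 (adjusted p = 0.104, limma) and Rgs19 by -0.31 (adjusted p = 0.113, limma), while Rgs16, picked after its values were seen, differed by 0.57 (adjusted p = 0.275, limma) over all arrays and by 0.30 without Tsc1-/- replicate 1, where it read 8.66 against 7.53 or lower elsewhere. Pik3r5, a subunit of the kinase that Gi-coupled receptors activate, was lower without overlap (-0.33) but not called (adjusted p = 0.126, limma), and Tiam1, an activator of Rac, differed by 0.32 (adjusted p = 0.200, limma). Gng2 and Gng10, G protein gamma subunits, differed by 0.27 and 0.31 (adjusted p = 0.198 and 0.238, limma). Cd69, which holds S1pr1 inside the cell, differed by -0.08 (adjusted p = 0.818, limma).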

How the data were processed

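RNA was measured on 1 expression array per sample in 4 WT and 5 Tsc1-/- samples, from 12 ng of total RNA amplified and labelled with NuGEN kits, per the labels' protocols. The authors deposited log2 expression for each probe set. RMA and Partek 6.5 are named, per the submitters' processing notes, without their options.

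Of 45037 probe sets, 28898 had 1 gene, 551 had several and 15588 were unnamed. Symbols were updated through Entrez identifiers (28689 matched) with RefSeq's GRCm38.p6 gene table. limma 3.58.1 (lmFit, eBayes; R 4.3.3) was run on all 17097 genes, genotype as the only term, two-sided. The fit was tested on simulated data. Arrays number 9, which limits the precision. The members, lists and tests were chosen with earlier results of these data known. Genes named beyond the members were the 4 smallest p among called members of each list, or the 2 smallest p where none was called. Klf2, Klf3, Zeb2, Tbx21, Hif1a, Prdm1, Cd69, Rgs16, Bhlhe40 and the single NK cell markers were named after their values were seen. As alike, 3 genes per member were ranked, given for called members and the 3 others with the largest range. Promoter windows are RefSeq's. Motifs were chosen after the values were seen. Alternatives were other probe set summaries, filters, scalings, variance models, array weights, a replicate block, marker levels as covariates and left-out arrays. Figures were drawn in Python 3.11.15.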

Additional observations from a re-analysis of the deposited data

Results flagged for a closer look

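Single arrays far from the rest of their group were looked for by Dixon's criterion at 95% in 76 groups of values, and 8 were found. Chance gives about 1 in 20. The groups covered every probe set of the receptors and the main probe set of other genes named. Bhlhe40, Hif1a, Prdm1, the genes of like pattern and the cell type markers were not screened, so 8 is not a count over all genes named. Over all genes 5.68% of WT groups and 6.69% of Tsc1-/- groups had such an array. Klf3 and Rgs16 were named after their values were seen, so the count of 8 is partly set by that choice. In Tsc1-/- replicate 1, S1pr1 read 8.66 with the next array at 9.31, S1pr5 read 10.12 with the next at 10.90, Klf3 read 10.62 with the next at 11.18, and Rgs16 read 8.66 with the next lower at 7.53. In Tsc1-/- replicate 4 the further Gpr183 probe set read 8.54, above the next at 8.30. In WT, S1pr5 read 10.30 in replicate 4 with the next at 10.65, Cx3cr1 read 10.08 in replicate 1 with the next at 9.91, and Eomes read 8.91 in replicate 1 with the next at 8.62. These far values were not tied to any label, and their cause was not tested.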

How the results depend on the processing

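In the 21 other settings run, the signs of the Gpr183, S1pr1, S1pr5, Cxcr3, Cx3cr1 and Ccr2 differences stayed the same. Gpr183 ran from -0.83 to -0.54 and was called in 13. Both the 21 and the 13 include the main fit read at an adjusted p under 0.1, where neither the sign nor the Gpr183 call could change. S1pr4 turned to -0.0033 under quantile normalization, -0.0007 with the replicate block and -0.0257 with the B cell level as a covariate, and between -0.0007 and 0.119 without single arrays. Cxcr6 ran from -0.1565 to 0.0141 without single arrays, turning without WT replicate 2 (0.0016) and without Tsc1-/- replicate 2 (0.0141).

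The count of receptor genes called lower was 1, and 0 with the replicate block or with either marker covariate, and 0 to 1 without single arrays; the count called higher was 0 in all. Over all genes, the counts lower and higher were 53 and 166. They were 140 and 542 with dim genes left out, 171 and 509 with a variance trend and robust estimation, 125 and 340 with array weights, 209 and 529 at an adjusted p under 0.1, and 32 and 58 after quantile normalization. Median centring gave 381 higher, and the fit that lacked both WT replicate 4 and Tsc1-/- replicate 1 gave 145 lower. Probe sets not joined gave 69 higher, a count of probe sets out of 45037 and not of genes. Without single arrays the counts ran from 1 to 159 lower and from 1 to 297 higher. With the replicate block, fitted on the 8 arrays numbered 1 to 4, limma called 0 and 0 (2354 at an unadjusted p under 0.05) and Gpr183 differed by -0.68 (adjusted p = 0.142). The labels do not say that numbers pair samples: same-numbered arrays had correlations of -0.186, 0.131, -0.121 and -0.015 in their deviations, and 2 of 8 correlated best with their own number. The cause of these changes was not tested, and left-out arrays also mean fewer samples.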
